A study of Arabidopsis thaliana with 12 samples.

Results

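The genes described here were at least 2-fold higher in wild-type Arabidopsis thaliana after t-zeatin and close to level in plants that overexpress the response regulator ARR22. They were chosen from the measured values of these same arrays. A probe set, the group of short probes that reads 1 transcript on the array, was taken where the mean log2 signal of the 3 t-zeatin arrays exceeded that of the 3 untreated arrays by 1 or more in Col-0. The same difference had to lie within 0.3 of 0 in the overexpressor, which is a change of 1.23-fold or less either way. The probe set also had to be paired with 1 gene and reach a group mean of 5.3 on the log2 scale, a signal of 39.4, in at least 1 group. This gave 182 probe sets for 181 genes, out of 6887 probe sets that met the pairing and signal conditions, 13513 paired with 1 gene and 22810 on the array.

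RNA of complete plants in the vegetative stage, 21 days old, was measured on 12 single-colour arrays in 4 groups of 3. The groups were Col-0 (stock N1092) without treatment, Col-0 exposed for 3 h to t-zeatin at 20 µM, the ARR22 overexpressor (ARR22-ox) without treatment, and ARR22-ox exposed in the same way. The untreated plants are labelled as having had no treatment, which is not a mock treatment. The labels used here do not give the promoter that drives ARR22, the number of independent lines, the background of the overexpressor or a batch, and batch and group therefore cannot be told apart. Nothing in them states that replicate arrays had separate plants as their source, and the p-values measure only the spread between these arrays.

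t-zeatin is a cytokinin, a plant hormone that promotes cell division and shoot growth. Cytokinin is perceived by membrane histidine kinases, and the signal passes through phosphotransfer proteins to response regulators in the nucleus. Type-B response regulators activate target genes, type-A regulators are among those targets and dampen the response, and ARR22 belongs to the type-C regulators, which can take phosphate from phosphotransfer proteins without acting as transcription factors. Genes for making ribosomes and for RNA processing are commonly found among cytokinin-induced genes in growing plant tissue.

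The targeted gene matched the labels. The ARR22 probe set, listed as RR22, read between 0.397 and 1.92 on the 6 Col-0 arrays and between 2752 and 3661 on the 6 ARR22-ox arrays. All arrays had been scaled to a trimmed mean of 100. ARR22-ox untreated replicate 3 stood apart from the other arrays. Its GAPDH control gave a 3'/5' ratio of 1.82 against at most 1.08 on the others, and its actin control gave 3.47 against at most 1.38, where a high ratio means that less of the transcript's 5' end was read. Its mean correlation with the other arrays of its group was 0.936, against 0.948 to 0.964 for the rest. For the members as a set and for some named genes, results are given with and without it. Markers of dividing cells and of green shoot tissue, lists of 8 and 5 genes, had no probe set paired with a single gene, so the labelled tissue could not be checked with them. Of 8 root markers 2 were tested. PYK10, a root glucosidase, differed between ARR22-ox and Col-0 by -0.35 on the log2 scale without treatment (limma adjusted p = 0.000856) and by -0.46 over both treatments (adjusted p = 4.41e-06). EXPA7, a root hair expansin, differed by -0.05 without treatment (adjusted p = 0.866) and by 0.36 over both (adjusted p = 0.0456), with a Col-0 response to t-zeatin of -0.71 (adjusted p = 0.0101). The part of root tissue in the results below was not tested. In whole plants, fewer cells of a type and less RNA per cell cannot be told apart.

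In Col-0, the members form part of a larger set. At least 2-fold induction was found for 446 of the 6887 probe sets that met the pairing and signal conditions, or 6.48%. Of these, 182 (40.8%) had an ARR22-ox response within 0.3 of 0, 184 had a response above 0.3 and 80 had one below -0.3. Among all 6887, 2914 (42.3%) lay within 0.3 of 0 in ARR22-ox, so that the share of level responses among the Col-0 induced genes was close to the share among all. The members make up 6.25% of those 2914.

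**Figure D1:**
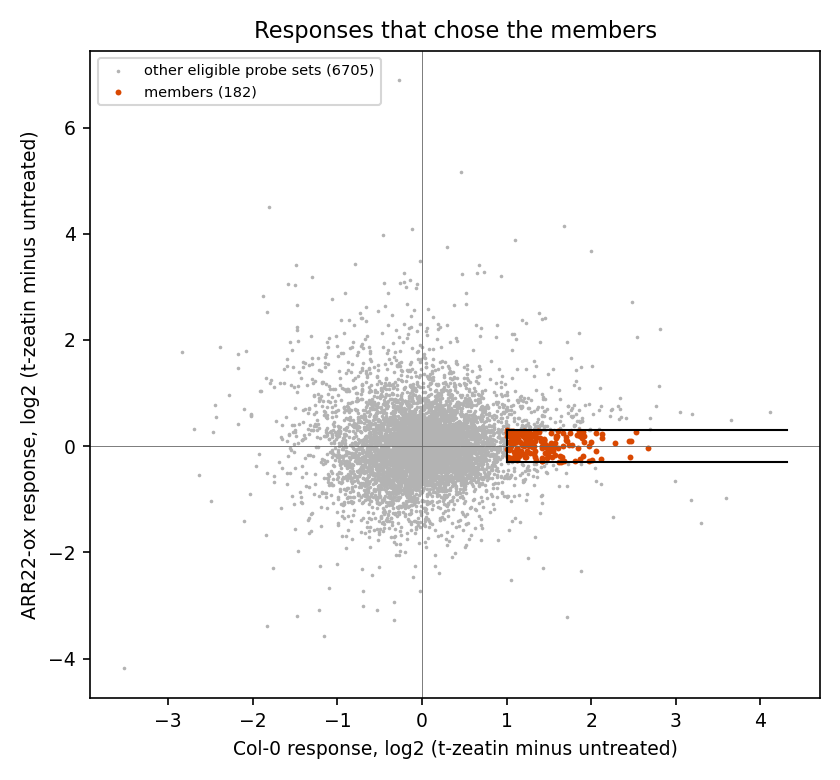
Each point is 1 of 6887 probe sets, with the t-zeatin response of Col-0 on the x axis and that of ARR22-ox on the y axis, both as log2 differences of group means over 3 arrays. The black lines bound the region that chose the 182 members (orange), which holds Col-0 responses from 1.0 to 2.67 and lies inside a broad spread of ARR22-ox responses.

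The Col-0 responses of the 182 members had a median of 1.31 on the log2 scale and ran from 1.0 to 2.67, with 57 members at 1.5 or more and 12 at 2 or more. All 176 members that passed the filter on dim probe sets were called higher (limma, two-sided, Benjamini-Hochberg adjusted p under 0.05), against 23.7% of the 13648 probe sets tested. Because the rule used this contrast, nothing is read from that count. Just inside the Col-0 limit were AT1G11820 and AT1G11800, at 1.0001 and 1.0003, and just outside it AT5G39960 and AT3G60380, both at 0.9999. At the upper edge of the ARR22-ox window AT1G77610 was inside at 0.299 and AT3G23620 outside at 0.301, and at the lower edge RRP41L was inside at -0.295 and AT2G37600 outside at -0.306. At the signal limit, AT1G16830 reached a highest group mean of 5.36 and was inside, while AT2G37510 reached 5.28 and was outside.

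The ARR22-ox responses of the members had a median of 0.06. The 95% interval of this response reached a median of 0.30 to either side of the estimate over the 176 tested members, from 0.15 to 0.84, so that for many members a response somewhat beyond the window of 0.3 is inside the interval. Small responses passed the test in 9 tested members, 7 of them higher and 2 lower (AT4G10480 and AT4G39300), against 50.3% of all probe sets tested that were called in either direction. The rule kept responses small, and nothing is read from this count either. Without ARR22-ox untreated replicate 3, 147 of the 182 stayed within 0.3 of 0, with 10 above and 25 below. In that fit 41 members were called, and the share over all probe sets is not given beside them. Chosen without that array, the rule gave 183 probe sets, of which 146 were shared with the 182.

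The difference of the responses, ARR22-ox minus Col-0, was called lower in 174 of the 176 tested members, against 24.5% of all probe sets tested. The rule also used both of its terms, and this count is a description of the choice.

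The rule limits, but does not fix, where the ARR22-ox signals lay relative to Col-0. The rule kept the 2 ARR22-ox means close to each other. In most members both lay inside the range that Col-0 spanned between its untreated and its treated state, nearer to the untreated end. Both ARR22-ox group means fell between the Col-0 means for 151 of the 182 members, both fell below the Col-0 untreated mean for 17, both lay above the Col-0 t-zeatin mean for 2 (AT1G68620 and OCT5), and 12 had other positions. Both means fell between the Col-0 means for 101 of the 184 Col-0 induced probe sets with an ARR22-ox response above 0.3 (54.9%), for 34 of the 80 with one below -0.3 (42.5%) and for 83.0% of the members. A wide Col-0 gap and 2 close ARR22-ox means favour such a position by construction, so the higher share is a description of the choice. With the Col-0 untreated mean as 0% and the Col-0 t-zeatin mean as 100%, the average of the ARR22-ox means stood at a median of 32.6% on the log2 scale, with the lower and upper quartiles at 20.9% and 46.9%. The same median was 30.9% and 34.2% in the other Col-0 induced sets, with ARR22-ox responses above 0.3 and below -0.3.

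**Figure D2:**
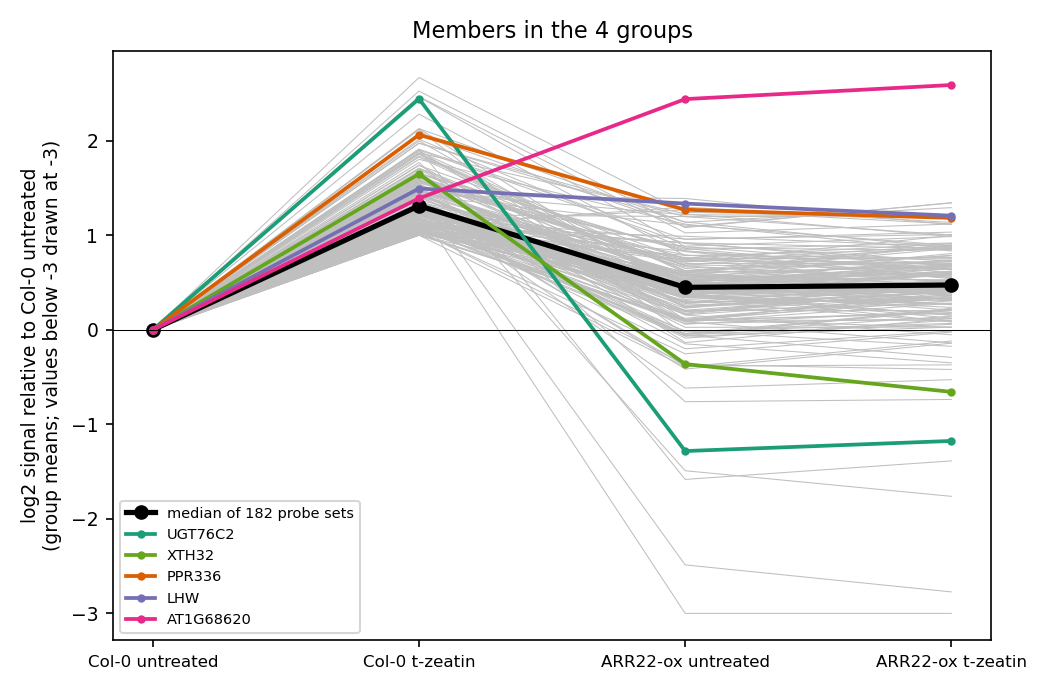
Group means of log2 signal for each of the 182 members (grey), set to 0 in Col-0 untreated, with their median in black and 5 named genes in colour. The median is 1.31 in Col-0 t-zeatin and sits near 0.45 in ARR22-ox untreated, while UGT76C2 and XTH32 lie below 0 and AT1G68620 above 2 in both ARR22-ox groups.

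Array by array, the median signal over the members was 50.4 to 53.3 in Col-0 untreated and 131 to 137 in Col-0 t-zeatin. In ARR22-ox it was 82.6, 84.0 and 64.0 on untreated replicates 1, 2 and 3 and 75.8 to 78.4 after t-zeatin. All 6 ARR22-ox medians lay between the 2 Col-0 ranges. The median over the other probe sets that met the pairing and signal conditions stayed between 90.1 and 93.6 on all 12 arrays. ARR22-ox untreated replicate 3 was below both other arrays of its group for 118 members (64.8%), against 42.3% of the other probe sets, and above both for 45 (24.7%), against 46.8%. What the high 3'/5' ratios of that array contribute to its lower values was not tested.

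**Figure D3:**
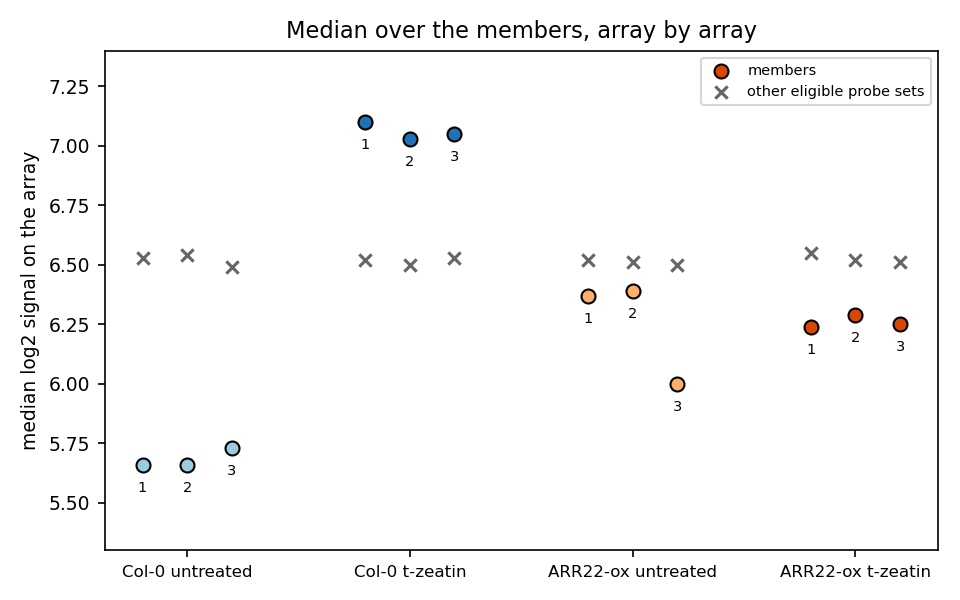
Median log2 signal on each of the 12 arrays over the 182 members (circles, with the replicate number) and over the other 6705 probe sets that met the pairing and signal conditions (crosses). The ARR22-ox medians lie between the Col-0 untreated and Col-0 t-zeatin medians, and ARR22-ox untreated replicate 3 (64.0 as a signal) is the lowest of its group.

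This position was tested as the mean of both ARR22-ox groups minus the mean of both Col-0 groups, so that 0 is the middle of the Col-0 range. For arrays of equal spread this genotype difference is independent of both responses that chose the members. It is not independent of the signal limit of 5.3. UGT76C2 and AT5G24580, for example, reached that limit in Col-0 t-zeatin only. The spreads were not equal: the median log2 SD of a member was 0.226 in ARR22-ox untreated, 0.106 in ARR22-ox t-zeatin, 0.131 in Col-0 untreated and 0.0818 in Col-0 t-zeatin. A member with the same untreated signal in both genotypes lies below 0 by construction, so a lower call places a gene nearer to the untreated end of Col-0 and is not in itself a repression. Of the 176 tested members 82 were called lower, against 27.2% of all probe sets tested, and 12 were called higher, against 23.1%. The median over all 182 was -0.25, from -4.99 to 1.82, beside -0.03 over all probe sets tested. It was -0.29 in the Col-0 induced probe sets with an ARR22-ox response above 0.3 and -0.20 in those with one below -0.3, close to the members. The difference lay within 0.5 of 0 for 140 members. Without ARR22-ox untreated replicate 3, 94 were called lower and 26 higher. The share over all probe sets in that fit is not given, so the change in these counts is not read.

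Without treatment, ARR22-ox was higher than Col-0 in 110 tested members, against 24.5% of all probe sets tested, and lower in 8, against 24%. The median difference over the 182 members was 0.45, beside 0.01 over all probe sets tested, 0.15 in the Col-0 induced set with an ARR22-ox response above 0.3 and 0.72 in that with one below -0.3, and 156 had a higher mean in ARR22-ox. Here the Col-0 untreated arrays also served to choose the members, and choosing a low value on them raises this difference. Without ARR22-ox untreated replicate 3, the median difference over the 177 members tested in that fit was 0.50, so the direction did not rest on that array. In that fit 124 were called higher and 8 lower. With every dim probe set kept in, 100 of the 182 were called higher and 8 lower. The shares over all probe sets in these other fits are not given, so changes in the counts are not read.

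After t-zeatin, ARR22-ox was lower than Col-0 in 156 tested members, against 28% of all probe sets tested, and higher in 1, AT1G68620, against 23.1%. A Col-0 response of 1 or more favours this direction, and the count is a description.

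**Figure D4:**
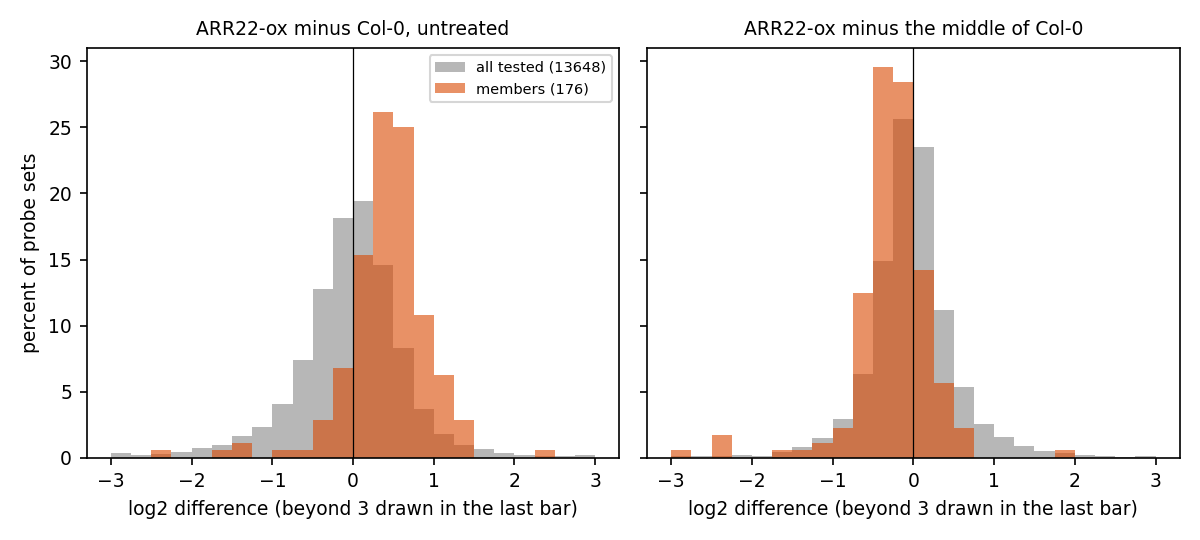
Percent of probe sets in bins of 0.25 on the log2 scale for the 176 tested members (orange) and all 13648 tested (grey), for ARR22-ox minus Col-0 without treatment (left) and for ARR22-ox minus the middle of the Col-0 range (right). Members centre near 0.45 on the left and a little below 0 on the right, with a few far below.

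Of the 181 member genes, 19 carry a name in the annotation used here and 162 a locus tag only. The 19 were set out by role after their values were known, so their groups are described and not tested as groups. Genes with a locus tag only were not sorted by role, so a group below can have further members among them. Among the 19 named genes ARR22-ox without treatment was higher in 10, lower in 4 and not called in 5. Over all probe sets tested, 24.5% were higher and 24% lower in this comparison. Against the middle of the Col-0 range, 3 of the 19 were higher, 11 lower and 5 not called. Here 23.1% of all probe sets tested were higher and 27.2% lower. Of the 157 tested probe sets with a locus tag only, 100 were higher and 4 lower (AT1G14960, AT2G30540, AT5G24580 and AT1G11820) without treatment. Signals below are linear and given array by array in replicate order, and differences are log2 with the model's SE.

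Of the genes on a cytokinin list, 1 was a member. UGT76C2 encodes the glucosyltransferase that inactivates cytokinins by N-glucosylation. Its signals were 39.8, 44.5 and 31.9 in Col-0 untreated and 202, 215 and 208 after t-zeatin, against 9.83, 16.4 and 24.2 in ARR22-ox untreated and 12.1, 16 and 25.2 after t-zeatin. Every ARR22-ox array was below every Col-0 array, with or without hormone. The Col-0 response was 2.44 ± 0.31 and the ARR22-ox response 0.11 ± 0.31. Without ARR22-ox untreated replicate 3 the ARR22-ox response was 0.417, outside the window of 0.3. ARR22-ox lay 2.45 ± 0.22 below the middle of the Col-0 range (limma adjusted p = 1.39e-06) and was 2.43-fold lower without treatment (adjusted p = 0.00411). The ARR22-ox signals lie mostly below 24.3, the lowest mean signal kept in the tests, where fold changes are least certain. UGT76C1, the related glucosyltransferase, was no member: its Col-0 response was -0.12 (adjusted p = 0.53) and its ARR22-ox response -0.55 (adjusted p = 0.00749).

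The rest of the pathway was mostly out of reach. Of 10 type-A response regulators only RR16 was tested, and it was no member, with a Col-0 response of 3.18 and an ARR22-ox response of -1.01 that both passed the test (adjusted p = 3.54e-07 and 0.0022). Of 19 genes of cytokinin synthesis, breakdown and conjugation 2 were tested, both described above. No type-B regulator passed the filter, and no receptor, phosphotransfer protein or cytokinin response factor on the lists had a probe set paired with a single gene.

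The other named sugar-acting enzymes among the members act on cell walls or glycosides, and all 3 lay below the middle of the Col-0 range. GH9C2, an endoglucanase of glycosyl hydrolase family 9, read 142, 137 and 116 in Col-0 untreated and 433, 461 and 447 after t-zeatin. In ARR22-ox it read 93.8, 97.4 and 50.7 untreated and 77.9, 77.3 and 81.0 after t-zeatin. Both ARR22-ox groups were below all Col-0 arrays, and the lowest value was that of the array that stood apart. GH9C2 lay 1.63 ± 0.14 below the middle of the Col-0 range (adjusted p = 9.94e-07), and 1.48 below without that array.

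XTH32, a xyloglucan endotransglucosylase/hydrolase that cuts and rejoins wall polymers, read 155, 142 and 147 in Col-0 untreated and 392, 490 and 517 after t-zeatin. In ARR22-ox it read 127, 120 and 99.9 untreated and 90.8, 97.0 and 93.6 after t-zeatin, so every ARR22-ox array lay below every Col-0 array. Its level was 1.33 ± 0.08 below the middle of the Col-0 range (adjusted p = 6.37e-08). The untreated difference of -0.36 (adjusted p = 0.0227) was no longer called when Col-0 untreated replicate 1 (-0.33) or replicate 3 (-0.37) was left out. Without ARR22-ox untreated replicate 3 this difference was -0.26. Every treated ARR22-ox array lay below every untreated one. The ARR22-ox response was -0.294 (limma adjusted p = 0.0547), and -0.395 without that replicate, outside the window of 0.3. BGLU40, a beta-glucosidase, read 131, 125 and 103 in Col-0 untreated and 258, 242 and 259 after t-zeatin, against 125, 111 and 145 and then 115, 112 and 98.6 in ARR22-ox. Here the ARR22-ox arrays overlapped with Col-0 untreated, and the untreated difference was 0.08 ± 0.12 (adjusted p = 0.592).

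Of 5 named members for ribosome synthesis and RNA processing, 4 lay below the middle of the Col-0 range and 1 was not called. Without treatment 2 of them were higher in ARR22-ox and 3 were not called. PES (AT5G14520), the Pescadillo protein needed for the large ribosomal subunit, read 285, 302 and 320 in Col-0 untreated and 735, 719 and 695 after t-zeatin. Its ARR22-ox signals were 308, 308 and 280 untreated and 310, 338 and 302 after t-zeatin. The ARR22-ox arrays overlapped with Col-0 untreated and were far from Col-0 t-zeatin. The untreated genotype difference was -0.02 ± 0.08 (adjusted p = 0.868), with a level 0.60 ± 0.05 below the middle of the Col-0 range (adjusted p = 1.93e-06).

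NOB1 (AT5G41190), in yeast the nuclease that finishes the small-subunit ribosomal RNA, read 113, 110 and 100 in Col-0 untreated and 249, 240 and 278 after t-zeatin. ARR22-ox gave 134, 134 and 152 untreated and 133, 145 and 158 after t-zeatin, all between the 2 Col-0 groups. NOB1 was higher in untreated ARR22-ox by 0.38 ± 0.10 (adjusted p = 0.00729). Its level of -0.22 ± 0.07 against the middle of the Col-0 range (adjusted p = 0.0196) was no longer called without Col-0 t-zeatin replicate 3 or without ARR22-ox t-zeatin replicate 1, at -0.19 each. RRP41L, a relative of an exosome subunit that degrades RNA, read 34.2, 33.4 and 36.1 in Col-0 untreated and 99.8, 103 and 116 after t-zeatin. In ARR22-ox it read 43.7, 46.6 and 44.4 untreated and 40.3, 40.1 and 30.3 after t-zeatin, near the untreated Col-0 arrays. Every treated ARR22-ox array lay below every untreated one, with an ARR22-ox response of -0.295 (limma adjusted p = 0.0693). The untreated difference of RRP41L, 0.38 (adjusted p = 0.0255), no longer passed when Col-0 untreated replicate 1 (0.37) or 2 (0.35) was left out, or ARR22-ox untreated replicate 2 (0.35).

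IMP4, named after a yeast protein of small-subunit processing, read 137, 151 and 157 in Col-0 untreated and 369, 359 and 352 after t-zeatin. ARR22-ox gave 214, 236 and 117 untreated and 190, 191 and 180 after t-zeatin. The array that stood apart was the one ARR22-ox array below the Col-0 untreated arrays. IMP4's untreated difference was 0.28 ± 0.20 (adjusted p = 0.254), and it was 0.60 and called without that array. The RNA helicase RH57 (AT3G09720) read 29.3, 24.2 and 28.2 in Col-0 untreated and 86.8, 96.6 and 89.2 after t-zeatin. Its ARR22-ox signals were 38.4, 26.8 and 31.5 untreated and 28.4, 39.3 and 49.3 after t-zeatin, spread over a wider range than in either Col-0 group. RH57 lay 0.51 ± 0.14 below the middle of the Col-0 range (adjusted p = 0.00744).

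The pentatricopeptide repeat proteins are RNA-binding proteins of mitochondria and plastids. Both named members of this family were higher in untreated ARR22-ox. PPR336, which in Arabidopsis belongs to the mitochondrial ribosome, read 66.2, 64.4 and 62.1 in Col-0 untreated and 258, 271 and 276 after t-zeatin. In ARR22-ox it read 167, 202 and 110 untreated and 122, 164 and 155 after t-zeatin, clear of both Col-0 groups. PPR336 was 2.41-fold higher in untreated ARR22-ox (adjusted p = 0.000107). Its difference from the middle of the Col-0 range was 0.20 ± 0.13 (adjusted p = 0.229), and it was 0.32 and called without the array that stood apart. The ARR22-ox response was -0.087 with that array and -0.335 without it, outside the window of 0.3.

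PPR596 read 52.5, 46.5 and 53.1 in Col-0 untreated and 288, 243 and 310 after t-zeatin, a response of 2.46 ± 0.17. Its ARR22-ox signals were 110, 108 and 68.0 untreated and 75.5, 83.8 and 83.0 after t-zeatin, also clear of both Col-0 groups. PPR596 was 1.84-fold higher in untreated ARR22-ox (adjusted p = 0.000881) and lay 0.46 ± 0.12 below the middle of the Col-0 range (adjusted p = 0.00623). The ARR22-ox response was -0.205, and -0.431 without the array that stood apart, outside the window of 0.3.

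Both named RNA polymerase subunits were higher in untreated ARR22-ox. NRPB7, a subunit of RNA polymerase II, read 56.9, 65.8 and 56.5 in Col-0 untreated and 154, 133 and 130 after t-zeatin. ARR22-ox gave 142, 139 and 129 untreated and 126, 126 and 107 after t-zeatin, so that untreated ARR22-ox overlapped with treated Col-0. NRPB7 was 2.29-fold higher in untreated ARR22-ox (adjusted p = 2.11e-06) and 0.49 ± 0.08 above the middle of the Col-0 range (adjusted p = 0.00016). NRPB12, a polymerase II subunit that other polymerases share, read 175, 163 and 192 in Col-0 untreated and 377, 405 and 405 after t-zeatin. Its ARR22-ox signals of 224, 235 and 350 untreated and 253, 241 and 246 after t-zeatin stood between the Col-0 groups, with the array that stood apart the highest. NRPB12 was 1.5-fold higher in untreated ARR22-ox (adjusted p = 0.00424).

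The 2 named transcription factors, both of the basic helix-loop-helix family, differed in where ARR22-ox stood. LHW (LONESOME HIGHWAY), which sets the size of the vascular cell population in roots, read 30.9, 41.0 and 34.0 in Col-0 untreated and 112, 100 and 86.1 after t-zeatin. In ARR22-ox it read 96.1, 94.5 and 76.4 untreated and 74.6, 90.5 and 78.7 after t-zeatin. Both ARR22-ox groups overlapped with treated Col-0 and lay above all untreated Col-0 arrays. LHW was 2.52-fold higher in untreated ARR22-ox (adjusted p = 1.1e-05) and 0.52 ± 0.10 above the middle of the Col-0 range (adjusted p = 0.000954).

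NAI1, which is needed for the endoplasmic reticulum bodies that store beta-glucosidase, read 40.9, 41.7 and 51.9 in Col-0 untreated and 151, 138 and 136 after t-zeatin. ARR22-ox gave 55.3, 58.4 and 20.7 untreated and 40.6, 47.5 and 58.8 after t-zeatin. The lowest of these was the array that stood apart, and the rest were at or a little above untreated Col-0. NAI1 lay 0.84 ± 0.22 below the middle of the Col-0 range (adjusted p = 0.00673), or 0.60 below without that array. Its untreated difference was -0.14 ± 0.31 (adjusted p = 0.748) with the array and 0.35 without it.

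**Figure D5:**
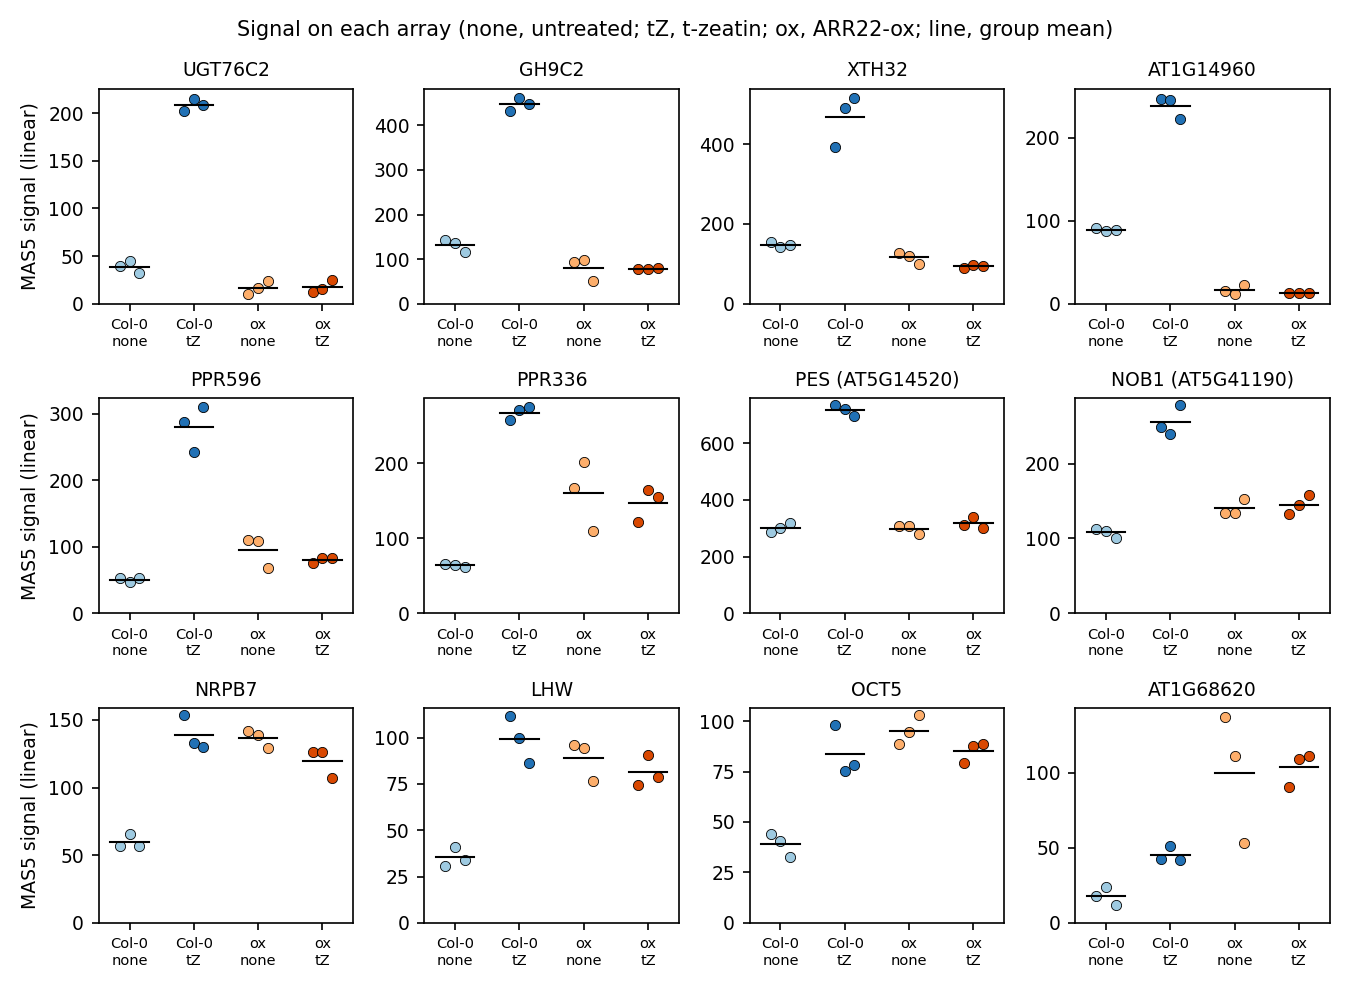
MAS5 signal on each of the 12 arrays for 12 members, on a linear axis that starts at 0, with points for arrays in replicate order and a line for each group mean. The ARR22-ox points lie below Col-0 untreated for UGT76C2, GH9C2, XTH32 and AT1G14960, between the Col-0 groups for PPR596, PPR336 and NOB1, near Col-0 untreated for PES, and at or above Col-0 t-zeatin for OCT5 and AT1G68620.

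The other named members took several positions. OCT5, an organic cation/carnitine transporter, read 44.0, 40.5 and 32.6 in Col-0 untreated and 98.0, 75.3 and 78.1 after t-zeatin. Its ARR22-ox signals were 88.6, 94.5 and 103 untreated and 79.1, 87.6 and 88.8 after t-zeatin, overlapping with treated Col-0. OCT5 was 2.46-fold higher in untreated ARR22-ox (adjusted p = 8.24e-06).

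CURT1D (AT4G38100), of the family that bends thylakoid membranes, read 89.4, 89.1 and 91.2 in Col-0 untreated and 260, 275 and 286 after t-zeatin. ARR22-ox gave 159, 149 and 128 untreated and 139, 139 and 143 after t-zeatin, all between the Col-0 groups. CURT1D was 1.61-fold higher in untreated ARR22-ox (adjusted p = 6.12e-05). The acetyltransferase gene NATA2 (AT2G39020) had means of 137 ± 7.9 and 325 ± 9.5 in Col-0 (SD, n = 3) and 198 ± 22 and 215 ± 24 in ARR22-ox, untreated and treated in turn. NATA2 was 1.44-fold higher in untreated ARR22-ox, with a limma adjusted p of 0.00137. ROF2 (AT5G48570), a peptidyl-prolyl isomerase of the FKBP family that takes part in heat acclimation, had means of 31.3 ± 2.1 and 76.7 ± 7.7 in Col-0 and 24.2 ± 3.6 and 24.2 ± 1.1 in ARR22-ox. It lay 1.02 ± 0.10 below the middle of the Col-0 range (adjusted p = 3.14e-06). The untreated difference of ROF2, -0.38 (adjusted p = 0.0388), was lost without any 1 of 6 arrays and with other array scaling.

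The 6 tested members with the lowest ARR22-ox level were AT1G14960, AT5G24580, UGT76C2, AT2G30540, GH9C2 and XTH32. AT1G14960 read 91.8, 87.7 and 88.3 in Col-0 untreated and 247, 245 and 223 after t-zeatin, against 15.3, 11.5 and 22.9 and then 13.5, 12.5 and 13.2 in ARR22-ox. No ARR22-ox array came near any Col-0 array, and the level was 3.34 ± 0.14 below the middle of the Col-0 range (adjusted p = 1.75e-09). AT5G24580 had means of 38.4 ± 1.6 and 123 ± 14 in Col-0 and 14.1 ± 4.5 and 12.0 ± 4.5 in ARR22-ox. AT2G30540 had means of 56.1 ± 13 and 207 ± 7.1 in Col-0 and 18.8 ± 4.7 and 21.3 ± 4.1 in ARR22-ox. The ARR22-ox group means of AT1G14960, AT5G24580 and AT2G30540 are below 24.3, so the level responses of these 3 genes in ARR22-ox were read on dim probe sets. Without the array that stood apart, the ARR22-ox response of AT5G24580 was -0.391, outside the window of 0.3. In all, 10 members lay more than 1 below the middle of the Col-0 range: these 6, AT1G14120, ROF2 and 2 untested ones, AT3G45710 and AT4G36580. AT3G45710 had the lowest position of all, at 42.5 ± 8.4 and 101 ± 2.2 in Col-0 and 2.65 ± 2.1 and 1.97 ± 0.16 in ARR22-ox.

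At the other end, the 6 highest were AT1G68620, OCT5, AT3G02190, AT5G02590, LHW and NRPB7. AT1G68620 read 17.6, 23.9 and 12.0 in Col-0 untreated and 42.4, 51.4 and 41.7 after t-zeatin, against 137, 111 and 53.3 and then 90.7, 109 and 111 in ARR22-ox. Every ARR22-ox array was above every Col-0 array, and the array that stood apart was the lowest of them. AT1G68620 was 5.43-fold higher in untreated ARR22-ox (adjusted p = 4.1e-05) and 1.82 ± 0.22 above the middle of the Col-0 range (adjusted p = 2.05e-05). AT3G02190 had means of 150 ± 24 and 324 ± 10 in Col-0 and 366 ± 92 and 324 ± 6.0 in ARR22-ox, so that both ARR22-ox groups matched treated Col-0 within their spread. AT5G02590 had means of 21.7 ± 2.2 and 57.8 ± 0.40 in Col-0 and 56.7 ± 3.4 and 46.7 ± 2.8 in ARR22-ox.

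Several genes with the largest Col-0 responses carry a locus tag only. AT3G12860 read 20.5, 14.6 and 15.5 in Col-0 untreated and 96.9, 88.1 and 104 after t-zeatin, and 45.3, 39.1 and 24.9 and then 38.6, 43.0 and 46.0 in ARR22-ox. AT5G51440 read 15.8, 21.3 and 25.7 and then 115, 111 and 114 in Col-0, and 43.7, 36.2 and 46.0 and then 52.1, 36.4 and 46.5 in ARR22-ox. In both genes every ARR22-ox array lay between the Col-0 groups, and the array that stood apart came closest to untreated Col-0 in AT3G12860. The untreated difference was 1.08 ± 0.21 (adjusted p = 0.000904) for AT3G12860 and 1.02 ± 0.18 (adjusted p = 0.000565) for AT5G51440. AT2G32220, at 55.2 ± 8.8 and 239 ± 12 in Col-0, had 122 ± 20 and 134 ± 4.7 in ARR22-ox. AT5G14050, at 96.6 ± 4.5 and 386 ± 5.7 in Col-0, had 129 ± 18 and 137 ± 3.2. AT1G71850, at 16.5 ± 3.1 and 79.8 ± 13 in Col-0, had 28.4 ± 5.9 and 29.8 ± 5.9. All 3 were higher in untreated ARR22-ox, with limma adjusted p-values of 2.61e-05, 0.00398 and 0.00833. AT3G26850, at 12.1 ± 3.9 and 48.8 ± 4.6 in Col-0 and 28.0 ± 14 and 29.5 ± 0.97 in ARR22-ox, was called higher (adjusted p = 0.0303). The call did not hold when Col-0 untreated replicate 1 (0.79) was left out, nor without ARR22-ox untreated replicate 1 (0.77) or 2 (0.87).

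The other 6 members fell under the filter on dim probe sets and have no test. They include AT1G16830, which has the largest Col-0 response of all. It read 8.31, 5.42 and 6.01 in Col-0 untreated and 35.1, 44.4 and 44.6 after t-zeatin, and 14.6, 14.7 and 16.7 and then 14.2, 17.1 and 13.7 in ARR22-ox. Its ARR22-ox arrays lay between the Col-0 groups. AT4G36580 had means of 11.4 ± 3.5 and 48.1 ± 5.8 in Col-0 and 12.6 ± 8.0 and 9.18 ± 2.1 in ARR22-ox. AT4G13120 had 12.5 ± 6.3 and 45.2 ± 6.3 in Col-0 and 20.2 ± 0.29 and 17.8 ± 7.4 in ARR22-ox. AT2G20710, AT1G07050 and AT3G45710 complete the 6.

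For 2 member genes a second probe set could be compared. Both probe sets of AT5G62440 are members, with Col-0 responses of 1.90 and 1.62 and ARR22-ox responses of -0.19 each. For AT1G79150 the member probe set gave 2.13 in Col-0 and 0.22 in ARR22-ox, while the brighter one gave 1.42 and 0.39 and is outside the ARR22-ox window.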

How the data were processed

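Per the labels, biotin-labelled RNA of whole plants was hybridised to 12 arrays in 4 groups of 3. The deposited values are linear array intensity per probe set, made by the authors with MAS5, per the submitters' processing notes, with no version given. The mean of each array after trimming 2% at each end was 100. The table held 22810 probe sets, 64 of them controls, which were left out. Detection calls were not used, and the number of arrays limits the precision. By the annotation given for the array, 13513 probe sets match 1 gene, 503 match more than 1 and 8730 match no gene, and 13436 of the first had their gene in the RefSeq annotation.

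Log2 signals were fitted with limma 3.58.1 in R 4.3.3: 4 group means on all 12 arrays, empirical Bayes moderation with a variance trend, two-sided tests. Probe sets at or above the 40th percentile of mean log2 signal were kept (13648, lowest kept mean signal 24.3), and a Benjamini-Hochberg adjusted p under 0.05 was called. Errors after ± are SDs for signals and the model's SEs for log2 differences. The fit was tested on simulated data.

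The members and gene lists were chosen with earlier results of these data known. Genes named are the 12 largest Col-0 responses, members on a cytokinin list, the 6 highest and 6 lowest tested levels against the middle of the Col-0 range, each by its brightest probe set, and the 2 largest Col-0 responses of any keyword list with at least 3 members, which no list had. The 19 members with a name in the annotation, and those singled out at the limits or among the far and untested members, were added after their values were seen. Alternatives were quantile normalization, equal array medians, an offset of 16 before log2, no filter, a filter at the 60th percentile, no variance trend, other limits of the rule and leaving out each array. No gene sequence table was used, and no sequence is printed.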

Additional observations from a re-analysis of the deposited data

Results flagged for a closer look

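The t-zeatin response differed between the genotypes, by the test of the difference itself, in 174 of the 176 tested members, all lower in ARR22-ox. The rule that chose the members used both responses, so this count describes the choice and adds no evidence about these genes.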

How the results depend on the processing

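No paired analysis was possible because the labels carry no replicate numbers that link arrays across groups. With the filter at the 60th percentile fewer members were tested, and the calls fell to 50 lower for the ARR22-ox level against the middle of the Col-0 range, 3 lower for the untreated difference, 0 higher and 103 lower after t-zeatin, 116 for the Col-0 response and 115 for the difference of responses. Members called higher in level ranged from 10 to 26 over fits without 1 array. Those called in the ARR22-ox response ranged from 2 to 41, and both counts were highest without ARR22-ox untreated replicate 3. Shares over all probe sets in these fits and under the stricter filter are not given, so changes in the counts are not read. The number of members was 277 with a Col-0 response of at least 0.8. With an offset of 16 before log2 it was 149, of which 116 were shared with the 182. In fits without 1 array, the level changed sign for AT3G12860 (-0.14 to 0.08), AT2G39020 (-0.06 to 0.01) and NRPB12 (-0.15 to 0.01), and the untreated difference for NAI1 (-0.40 to 0.35), AT5G14520 (-0.06 to 0.03) and BGLU40 (-0.02 to 0.18). AT5G14520 also reversed with equal array medians, at 0.01. For the named genes 1040 other values kept direction and side of the threshold, 19 lost the call and 12 gained it. The cause was not tested.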
